A study of Homo sapiens with 12 samples.

Results

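Tumours grown under the highest ceritinib dose were set against tumours grown under the next lower dose. The comparison took the 3 tumours titled 100 mg/kg and the 3 titled 87.5 mg/kg, which are 6 of the 12 tumours in the series, and it covered all 12300 genes that passed a detection filter. All tumours were xenografts in mice of H3122, which is a single established line of human lung adenocarcinoma with an EML4-ALK fusion gene. Per the series' description, tumours under ceritinib first lost volume and later acquired resistance, and the title names epithelial-mesenchymal transition and the microRNAs miR-34a and miR-449. The other tumours were 4 at 75 mg/kg and 2 controls. The labels give no second agent, no host strain, age or sex, no day of collection for any tumour, and leave unsaid how many mice bore the tumours. The p-values therefore measure the spread between these tumours.

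EML4-ALK is a fusion kinase that signals without a ligand, and ceritinib blocks its kinase domain. Lung adenocarcinoma cells that regrow under an ALK inhibitor can do so through mutations of ALK, through other receptor kinases or with a shift in cell state. Such a shift often involves genes of cell adhesion, of the basement membrane and of pericellular proteolysis, in which plasminogen activators and matrix metalloproteinases break down the matrix around a cell.

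Total RNA was labelled with biotin and hybridised to Illumina BeadChips, so a value is the brightness of 1 probe per gene on a normalized log2 scale (log2 signal below). A difference is the mean of the 100 mg/kg tumours minus the mean of the 87.5 mg/kg tumours on that scale. Arrays detected 17993 to 19478 of 47323 probes, 38% to 41.2%. Array correlations were 0.9828 to 0.9883 among the 100 mg/kg tumours and 0.9634 to 0.9828 among the 87.5 mg/kg tumours. The first principal component held 41.9% of the variance and placed the 100 mg/kg tumours at 23.1, 29.9 and 19.9, against 1.71, -10.1 and -2.23 for the 87.5 mg/kg tumours. The second component (17.6%) set replicate 2 at 87.5 mg/kg apart, at 39.7, while the other 11 tumours lay between -25.9 and 18.9. Counts and calls that change without this tumour are given both ways.

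At 100 mg/kg, 96 of 12300 genes differed from 87.5 mg/kg (0.78%; limma, Benjamini-Hochberg adjusted p between 0.0314 and 0.0498, threshold 0.05). This count rests on a spread estimated from all 12 tumours of the series. With the 6 compared tumours alone 1 gene passed the threshold, and with the 10 ceritinib tumours 0 passed. Of the 96, 43 were higher (0.35%) and 53 were lower (0.431%), and 20 of the higher and 21 of the lower ones differed by more than 2-fold. The lower genes included those for a plasminogen activator (PLAT), a basement membrane laminin chain (LAMB3), a mesenchymal homeobox factor (PRRX2), a matrix metalloproteinase (MMP7) and a mesenchymal cadherin (CDH11). Among the higher genes were the myosin heavy chain MYH11 and coagulation factor F7, both undetected at 87.5 mg/kg, and the lipid phosphatase INPP5J. In all 96 genes the 3 tumours of 1 dose lay wholly on 1 side of the 3 of the other, as they did for 10.3% of all genes upward and 7.63% downward. The 96 were picked for a wide gap between these same tumours. Groups that do not overlap, here and below, are therefore largely built in and are no further support for the calls.

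The number of genes past the threshold rested on single tumours. It was 0 without replicate 1 at 87.5 mg/kg, 0 without replicate 1 and 0 without replicate 2 at 100 mg/kg, 1 without replicate 3 at 100 mg/kg and 12 without replicate 3 at 87.5 mg/kg, but 276 without replicate 2 at 87.5 mg/kg, of which 82 were among the 96. Without that tumour, 8 of the genes named here had an adjusted limma p above 0.05: KAT7 (0.0503), ABCC3 (0.051), GPRC5A (0.0535), UCP2 (0.0553), BOK, ITGA5 and PRRX2 (0.0561 each) and ASAP1 (0.0605). In the 3 fits that left out 1 tumour and gave 0 genes, limma gave an unadjusted p under 0.05 for 1575 to 1676 genes. All 96 kept their direction in each setting that gave them a value. The groups did not overlap in any of the 96, so leaving out a tumour could not change a direction. For those fits the outcome was fixed in advance and is no support for the calls. When the arrays were brought to 1 common median instead of being quantile normalized, 57 genes were higher and 40 lower (58.8% higher, against 44.8% here), and the median difference of all genes was 0.12 in place of 0.024.

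**Figure D1:**
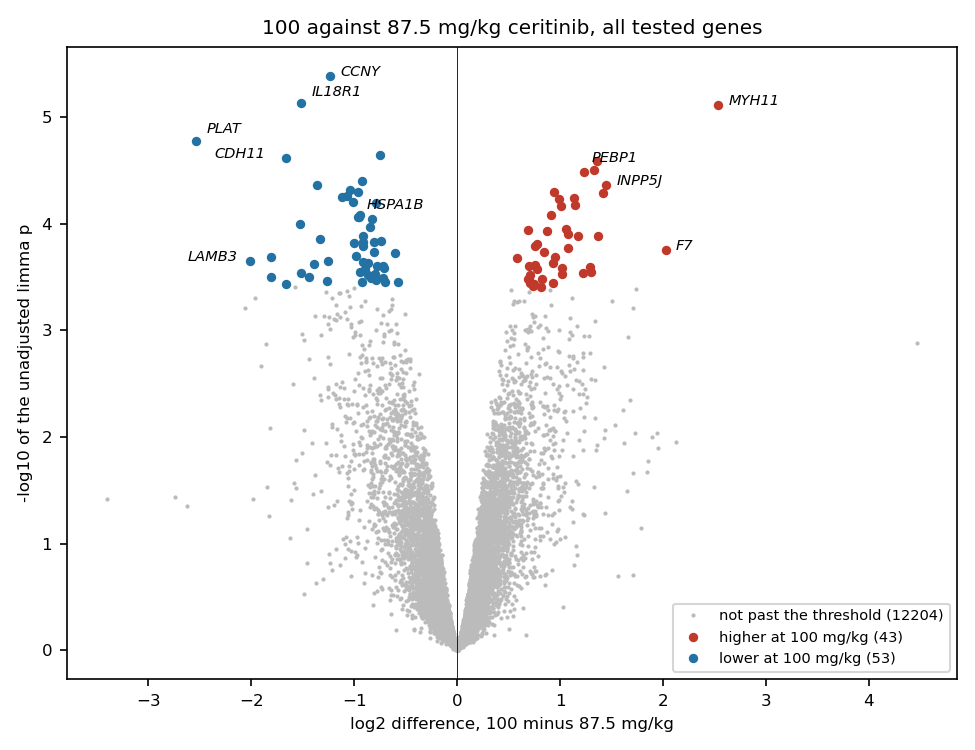
Each point is 1 of 12300 tested genes, with its log2 difference (100 minus 87.5 mg/kg) on the x axis and the -log10 of its unadjusted limma p on the y axis. The 43 genes past the threshold on the right and the 53 on the left start at similar heights, with PLAT (-2.54) and MYH11 (2.53) outermost among them and CCNY at the top; the grey point far to the right is SMOC2 (4.46).

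PLAT, the tissue-type plasminogen activator, a secreted protease that turns plasminogen into plasmin, had log2 signals of 8.11, 9.01 and 8.55 at 100 mg/kg, against 11.01, 11.32 and 10.95 at 87.5 mg/kg. The tumours of the 2 doses were about 2 log2 units apart at their closest, and the level fell by 2.54 on the log2 scale, or 5.8-fold (SE 0.35, limma adjusted p = 0.0353). PLAUR, the receptor that holds the other plasminogen activator, urokinase, on the cell surface, had 8.84, 8.20 and 8.67 at 100 mg/kg, against 9.70, 9.67 and 9.30 at 87.5 mg/kg. It fell by 0.98 (SE 0.18, limma adjusted p = 0.0467), and its 2 further probes had differences of -0.99 and -0.93. SRPX2, a secreted ligand of that receptor, had 5.09, 6.21 and 5.44 at 100 mg/kg, with detection in 1 of 3 tumours, against 7.53, 6.70 and 7.50 at 87.5 mg/kg, with detection in all 3. It fell by 1.66 (SE 0.33, limma adjusted p = 0.0484). PLAUR and other members outside the 15 genes with the largest differences in each direction are named here after their values were seen.

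MMP7, matrilysin, an epithelial matrix metalloproteinase, was not detected in any 100 mg/kg tumour and was detected in all 3 at 87.5 mg/kg. Its log2 signals were 5.16, 5.59 and 5.35 at 100 mg/kg, against 6.99, 7.74 and 6.78 at 87.5 mg/kg, so it was at least 2.1-fold lower (limma adjusted p = 0.0467). That bound sets each undetected signal at the lowest signal detected on its array, where that is higher. A second MMP7 probe had a difference of -1.26.

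MMP7, SRPX2 and PLAUR were the lower genes whose 250 bases upstream of the start site hold the AP-1 letters TGACTCA on either strand. AP-1 is the dimer of FOS and JUN proteins, and these letters are its usual site. They occurred in 3 of 34 lower genes with a promoter in the RefSeq table, in 0 of 34 higher genes and in 4.16% of 27305 promoters. The search used the first start listed for a gene and was made after the values were seen. MMP7, SRPX2 and PLAUR were picked for being lower and for holding the letters, so sharing both is built in. The windows are shown because these 3 genes are linked to breakdown of the matrix. They are 60 bases long and read 5′ to 3′ on the gene's strand, the letters are in capitals, and the build is GRCh38.p14. They lie at chr11:102530782-102530841 on the minus strand for MMP7, at chrX:100644063-100644122 on the plus strand for SRPX2 and at chr19:43670323-43670382 on the minus strand for PLAUR. The letters begin 67, 109 and 186 bases before the start of MMP7, SRPX2 and PLAUR, in that order. A match of letters is a description and does not show binding.
MMP7: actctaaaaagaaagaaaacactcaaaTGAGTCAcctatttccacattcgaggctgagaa
SRPX2: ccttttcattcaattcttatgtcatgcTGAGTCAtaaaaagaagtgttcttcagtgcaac
PLAUR: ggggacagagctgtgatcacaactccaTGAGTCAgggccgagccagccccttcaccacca

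Of the genes of adhesion to matrix or to other cells, LAMB3, ITGA5, CDH11 and CDH3 were lower at 100 mg/kg. LAMB3, a beta chain of the laminin that anchors epithelia, had 8.99, 8.03 and 7.45 at 100 mg/kg, against 10.63, 9.83 and 10.05 at 87.5 mg/kg. The highest 100 mg/kg tumour stayed below the lowest 87.5 mg/kg tumour, and LAMB3 fell by 2.01 (SE 0.38, limma adjusted p = 0.0468). ITGA5, the alpha chain of a fibronectin receptor, had 7.50, 7.53 and 7.39 at 100 mg/kg, against 8.53, 8.59 and 8.13 at 87.5 mg/kg, and fell by 0.94 (limma adjusted p = 0.0477).

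CDH11, a cadherin best known from mesenchymal cells, had 7.42, 6.90 and 6.59 at 100 mg/kg, against 8.26, 8.47 and 9.18 at 87.5 mg/kg, a drop of 1.67 (SE 0.24, limma adjusted p = 0.0353). CDH3, P-cadherin of epithelial cells, had 8.96, 8.82 and 8.84 at 100 mg/kg, against 9.96, 9.98 and 10.03 at 87.5 mg/kg. The 3 values of each dose were within 0.2 log2 units of each other, and CDH3 fell by 1.12 (SE 0.18, limma adjusted p = 0.0353). Fibroblasts also make CDH11, and their marker genes had a summed linear signal of 987 to 1202 at 100 mg/kg, against 1379 to 1837 at 87.5 mg/kg. The part of these cells in the result was not tested, and in bulk tissue fewer cells of a type and less RNA per cell cannot be told apart. Both a mesenchymal and an epithelial cadherin were lower, while E-cadherin (CDH1) and N-cadherin (CDH2) did not pass the threshold.

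Some of the lower genes encode small GTPases or proteins that act with them; they were not tested as a group, and RND3, RRAS and TRIP10 were picked after their values were seen. RAC2, a small GTPase known mainly from blood cells, had 8.54, 9.12 and 8.54 at 100 mg/kg, against 10.04, 10.15 and 10.57 at 87.5 mg/kg. It fell by 1.52 (SE 0.29, limma adjusted p = 0.0477). Markers of macrophages and granulocytes, with 6 of 13 tested, summed to 6188 to 7655 at 100 mg/kg, against 8082 to 9824 at 87.5 mg/kg. Of the 6, 3 had differences above 0 and 3 below 0, with a median of 0.04. Host cells are from mouse, while the probes are designed for human genes. The part of these cells in the result was not tested. RND3, a GTPase that acts on the actin cytoskeleton, fell by 0.79, RRAS, a Ras relative that acts on integrins, fell by 0.82, and TRIP10, an effector of CDC42 that bends membranes, fell by 0.90. In each of these 4 genes the groups did not overlap.

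Single transcription factors, retinoid-linked genes, receptors and carriers were also among the lower genes. Among transcription factors, PRRX2, a homeobox factor of embryonic mesenchyme, had 6.36, 5.77 and 5.51 at 100 mg/kg, with detection in 1 of 3 tumours, against 8.02, 7.81 and 7.22 at 87.5 mg/kg. NR2F1, an orphan nuclear receptor, had 7.76, 7.77 and 7.90 at 100 mg/kg, against 9.31, 8.62 and 9.81 at 87.5 mg/kg. PRRX2 fell by 1.81 and NR2F1 fell by 1.44 (limma adjusted p = 0.0482 for each). MECOM, a zinc finger factor, was detected in no 100 mg/kg tumour, at 5.82, 5.85 and 5.78, against 6.90, 7.34 and 7.22 at 87.5 mg/kg, where all 3 tumours detected it. It was at least 2.08-fold lower (limma adjusted p = 0.0431).

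Of the retinoid-linked genes, CRABP2, which carries retinoic acid to its nuclear receptor, fell by 1.36, and GPRC5A, an orphan receptor induced by retinoic acid, fell by 1.39. CRABP2 had 7.15, 7.90 and 7.64 at 100 mg/kg, against 8.84, 8.75 and 9.18 at 87.5 mg/kg. GPRC5A was tight at 8.67, 8.61 and 8.57 at 100 mg/kg, against 10.03, 10.21 and 9.76 at 87.5 mg/kg. The limma adjusted p was 0.0353 for CRABP2 and 0.0468 for GPRC5A, and neither gene's groups overlapped.

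Among receptors and carriers, IL18R1, a chain of the interleukin 18 receptor, was at 5.59, 5.91 and 5.62 without detection at 100 mg/kg, against 7.55, 7.42 and 6.71 at 87.5 mg/kg. It was at least 2.19-fold lower (limma adjusted p = 0.0314). ABCC3, an efflux pump for conjugated drugs and bile salts, had 10.95, 10.62 and 9.96 at 100 mg/kg, against 11.83, 11.73 and 11.76 at 87.5 mg/kg, and fell by 1.26 (limma adjusted p = 0.0484). IRS1, the adaptor of the insulin and IGF receptors, fell by 0.86 (limma adjusted p = 0.0468). MCTP1, a calcium-binding membrane protein, fell by 1.52, with detection in 2 of 3 tumours at 100 mg/kg. VPS13C, a lipid transfer protein, fell by 1.25 on its brightest probe, while its second probe had a difference of -0.28 (limma p adjusted over all detected probes = 0.7252).

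**Figure D2:**
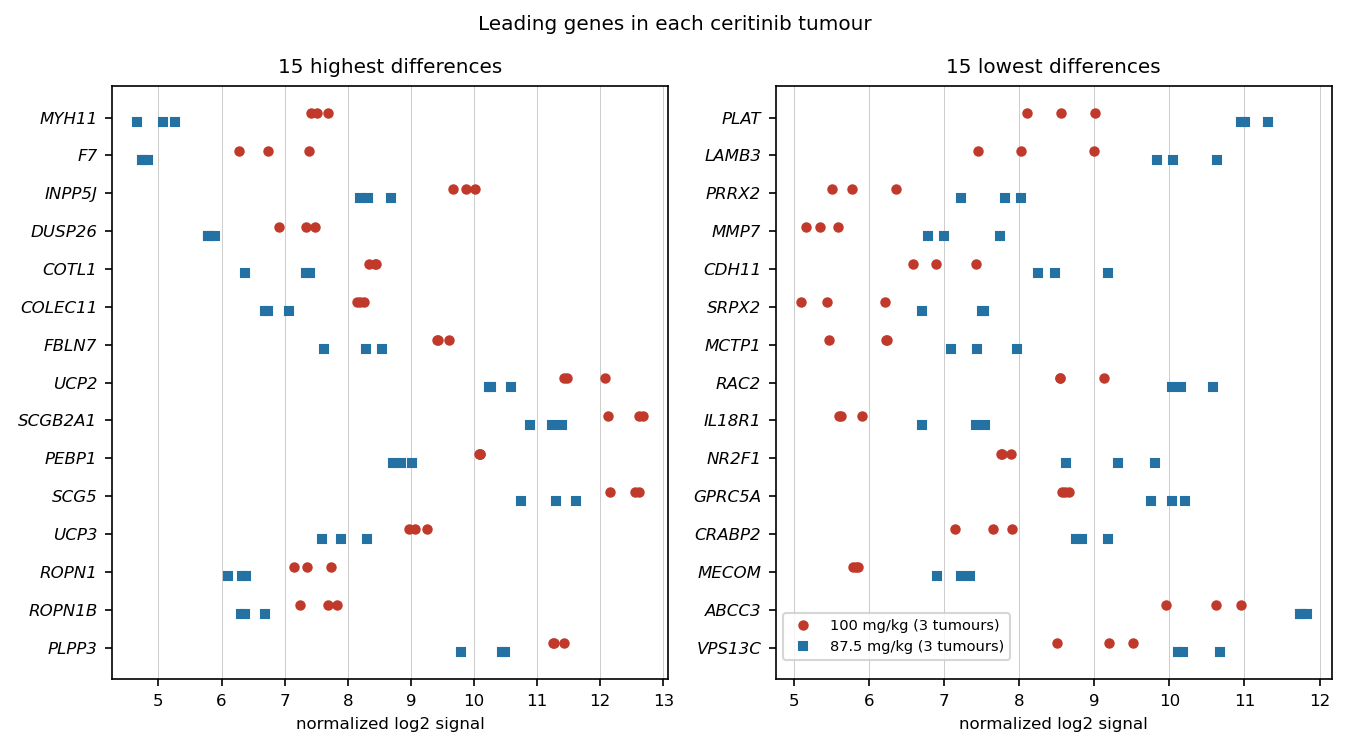
Normalized log2 signal (x axis) of the 15 genes with the highest and the 15 with the lowest differences past the threshold, with 1 point per tumour, circles for 100 mg/kg and squares for 87.5 mg/kg. No gene's groups overlap; PLAT has a difference of -2.54, while replicate 3 at 87.5 mg/kg lies about 1 log2 unit below its group in COTL1.

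CCNY, cyclin Y, a membrane-bound partner of cyclin-dependent kinases, had the smallest p of all genes together with a 100 mg/kg level that stood alone among the doses. It had 10.12, 9.93 and 10.45 at 100 mg/kg, against 11.42, 11.33 and 11.47 at 87.5 mg/kg, and fell by 1.24 (SE 0.15, limma adjusted p = 0.0314). Its second detected probe had a difference of -0.17 (limma p adjusted over all detected probes = 0.7924), so the drop was seen on 1 of 2 probes. AGFG1, which takes part in vesicle traffic, had a similar split. Its brightest probe fell by 1.01 (limma adjusted p = 0.0353), and its 2 other probes had differences of 0.18 and 0.22. Over all 96 genes, 23 further detected probes belonged to 19 genes, and 21 of these probes pointed the same way as the one tested.

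HSPA1B, an inducible HSP70 chaperone, was the heat shock gene that passed the threshold. It had 12.49, 12.05 and 12.53 at 100 mg/kg, against 13.26, 13.35 and 13.33 at 87.5 mg/kg, and fell by 0.96 (SE 0.15, limma adjusted p = 0.0353). The near-identical copy HSPA1A had 10.60, 10.67 and 10.39 at 100 mg/kg, against 10.71, 11.23 and 10.63 at 87.5 mg/kg, with an adjusted p of 0.449, and the 2 probes may read each other's RNA. HSPA6, a further inducible member, had a difference of -1.41 (limma adjusted p = 0.174). The heat shock list as a whole had 1 of 33 tested members past the threshold and a median of 0.05 (0.1 without replicate 2 at 87.5 mg/kg), against 0.024 for all genes. The heat shock element, read here as GAANNTTC on either strand, occurred in the 250 upstream bases of 4 of 34 lower genes (HSPA1B, GOLM1, KCNK6 and UNC5CL), 0 of 34 higher genes and 5.85% of all promoters. The HSPA1B window is shown as the classical example of that element, at chr6:31827577-31827696 on the plus strand of GRCh38.p14 (RefSeq), with the element in capitals, beginning 105 bases before the start.
HSPA1B: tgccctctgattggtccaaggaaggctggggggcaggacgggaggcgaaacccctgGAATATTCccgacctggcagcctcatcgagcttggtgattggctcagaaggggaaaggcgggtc

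MIR21, the gene of the growth-promoting microRNA miR-21, was the microRNA gene past the threshold. Its probe had 6.56, 6.65 and 6.27 at 100 mg/kg, against 7.44, 7.28 and 7.63 at 87.5 mg/kg, and fell by 0.96 (SE 0.16, limma adjusted p = 0.0382). The labelling is made for long transcripts, so the value is not that of the mature microRNA. VMP1, an autophagy gene whose locus overlaps MIR21, had 12.62, 12.64 and 12.78 at 100 mg/kg, against 13.03, 13.43 and 12.88 at 87.5 mg/kg, with an adjusted p of 0.222. The mature strand is given because it is the product for which the gene is known, with its seed, bases 2 to 8, in capitals. RefSeq places it at chr17:59841273-59841294 on the plus strand of GRCh38.p14.
hsa-miR-21-5p: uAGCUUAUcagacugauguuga

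On the higher side, MYH11, the smooth muscle myosin heavy chain, had 7.51, 7.41 and 7.68 at 100 mg/kg, against 5.08, 4.66 and 5.26 at 87.5 mg/kg, where no tumour detected it. It was at least 2.71-fold higher (limma adjusted p = 0.0314), while ACTA2 and TAGLN, further genes of smooth muscle, had differences of -0.11 and -0.36. F7, coagulation factor VII, a protease usually made by the liver, had 6.73, 7.38 and 6.28 at 100 mg/kg, against 4.83, 4.75 and 4.73 without detection at 87.5 mg/kg. It was at least 1.63-fold higher (limma adjusted p = 0.0449). Both genes were detected in all 3 tumours at 100 mg/kg and in none at 87.5 mg/kg. Over the 43 higher genes, 12 were not detected in any 87.5 mg/kg tumour, and over the 53 lower genes 6 were not detected in any 100 mg/kg tumour.

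INPP5J, DUSP26, PEBP1 and PLPP3, all higher at 100 mg/kg, encode enzymes or inhibitors of different signalling routes. INPP5J, which removes a phosphate from inositol lipids of the PI3K pathway, had 9.67, 10.01 and 9.87 at 100 mg/kg, against 8.69, 8.20 and 8.33 at 87.5 mg/kg, a rise of 1.45 (SE 0.22, limma adjusted p = 0.0353). DUSP26, a dual-specificity protein phosphatase, had 6.90, 7.34 and 7.48 at 100 mg/kg, against 5.79, 5.90 and 5.79 without detection at 87.5 mg/kg, and was at least 2.21-fold higher (limma adjusted p = 0.0353). PEBP1, the RAF kinase inhibitor protein, had 10.10, 10.08 and 10.09 at 100 mg/kg, against 9.02, 8.85 and 8.72 at 87.5 mg/kg. The 100 mg/kg values of PEBP1 were nearly equal, and it rose by 1.23 (SE 0.18, limma adjusted p = 0.0353). PLPP3, which breaks down lysophosphatidic acid and related lipid signals outside the cell, rose by 1.08 (limma adjusted p = 0.0423).

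Some higher genes encode secreted proteins, as do the lower genes PLAT, MMP7 and SRPX2. SCGB2A1, a secretoglobin of glands, had 12.67, 12.61 and 12.12 at 100 mg/kg, against 11.40, 11.24 and 10.89 at 87.5 mg/kg, and rose by 1.29 (SE 0.25, limma adjusted p = 0.0468). SCG5, a neuroendocrine chaperone of a prohormone convertase, had 12.54, 12.61 and 12.16 at 100 mg/kg, against 11.61, 11.30 and 10.74 at 87.5 mg/kg, and rose by 1.22 (SE 0.24, limma adjusted p = 0.0477). COLEC11, a lectin of the complement system, rose by 1.36, and FBLN7, a fibulin of the extracellular matrix, by 1.33 (limma adjusted p = 0.0353 for each). The matrix genes did not all go one way, since FBLN7 was higher while LAMB3 was lower.

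UCP2 and UCP3, neighbouring genes for mitochondrial inner membrane carriers, were both higher. UCP2 had 11.48, 11.43 and 12.07 at 100 mg/kg, against 10.58, 10.24 and 10.27 at 87.5 mg/kg, and rose by 1.30 (SE 0.25, limma adjusted p = 0.0477). UCP3 had 8.97, 9.25 and 9.07 at 100 mg/kg, against 7.89, 7.58 and 8.30 at 87.5 mg/kg, and rose by 1.17 (SE 0.21, limma adjusted p = 0.0423), but its second probe had a difference of 0.06. COTL1, a coactosin-like protein that binds actin, had 8.42, 8.45 and 8.33 at 100 mg/kg, against 7.40, 7.34 and 6.37 at 87.5 mg/kg, and rose by 1.37 (limma adjusted p = 0.0423). ROPN1 and ROPN1B, paralogs of the sperm flagellum whose probes may read each other's RNA, each rose by 1.14 (limma adjusted p = 0.0353).

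Gene lists drawn from general knowledge placed these single genes in their pathways. Their counts stand against 0.35% of all genes higher and 0.431% lower. Counts given without replicate 2 at 87.5 mg/kg stand against the 93 genes higher and 183 lower of 12300 in that fit. Integrins, laminins and basement membrane genes had 0 members higher and 2 lower (LAMB3 and ITGA5) of 20 tested. Their median was -0.46 against 0.024 for all genes, and in 8 of 20 the 100 mg/kg tumours all lay below the 87.5 mg/kg tumours, against 7.63% of all genes. COL7A1, the collagen of anchoring fibrils, had 7.95, 7.15 and 7.20 at 100 mg/kg, against 9.54, 8.35 and 8.39 at 87.5 mg/kg (limma adjusted p = 0.129). ITGA2, a collagen receptor chain, had a difference of -0.87 (limma adjusted p = 0.103). Without replicate 2 at 87.5 mg/kg, 1 of the 20 was lower and the median was -0.41.

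Mesenchymal markers had 0 of 25 members higher (0.35% of all genes), 2 lower (CDH11 and ITGA5; 0.431% of all genes) and a median of -0.48, with 21 members below 0. CNN2, the actin-binding calponin, had 9.50, 9.48 and 9.24 at 100 mg/kg, against 10.78, 10.42 and 10.84 at 87.5 mg/kg. Its groups were apart, and its limma adjusted p was 0.0518, or 0.0396 without replicate 2 at 87.5 mg/kg. Without replicate 2 at 87.5 mg/kg, 4 of the 25 were lower, in a fit where 183 of all 12300 genes were lower. YAP and TAZ targets, genes switched on by the Hippo pathway's coactivators, had 0 higher and 1 lower of 21 tested, with a median of -0.49. The lower one was ASAP1 (-0.70), which regulates focal adhesions, and 0 were lower without replicate 2 at 87.5 mg/kg. Further probes of ASAP1 had differences of -0.60 and -0.21 (limma p adjusted over all detected probes = 0.1275 and 0.6583). CCN1, a matricellular target of YAP and TAZ, had a difference of -0.94 (limma adjusted p = 0.0738). Epithelial markers had 0 higher and 1 lower (LAMB3) of 30 tested and a median of -0.23, and 2 lower without replicate 2 at 87.5 mg/kg. MUC1, the membrane mucin, had 12.14, 13.94 and 12.64 at 100 mg/kg, against 14.92, 14.89 and 14.80 at 87.5 mg/kg (limma adjusted p = 0.0559). KRT7, a keratin of simple epithelia, had a difference of -0.61 (limma adjusted p = 0.135).

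Beside these lists stand the marker genes of non-tumour cells, none of which passed the threshold. Without replicate 2 at 87.5 mg/kg, 1 lymphocyte marker was higher, in a fit where 93 of all 12300 genes were higher. Host RNA is from mouse, while the probes are designed for human genes. For fibroblasts and pericytes, whose summed signal was lower at 100 mg/kg in every tumour, 6 of 13 markers on the array were tested (ACTA2, COL1A1, COL1A2, FAP, LUM and TAGLN). All 6 had differences below 0, with a median of -0.43 (-0.27 without replicate 2 at 87.5 mg/kg), and 0 passed the threshold. The defining markers PDGFRA, PDGFRB, DCN and COL3A1 failed the detection filter. Macrophage and granulocyte markers had 6 of 13 tested and a median of 0.04 (-0.1 without replicate 2 at 87.5 mg/kg), although their sum was lower at 100 mg/kg in every tumour, and PTPRC, CSF1R and ITGAM failed the filter. Endothelial markers, with 4 of 12 tested, summed to 1275 to 1420 at 100 mg/kg, against 935 to 1107 at 87.5 mg/kg, with TEK, TIE1 and ENG below the filter. Of the 4, 3 had differences above 0 and 1 below 0, with a median of 0.31 (0.47 without replicate 2 at 87.5 mg/kg). The part of these cells in the results was not tested.

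The remaining marker sums overlapped between the doses. Those of lymphocytes (4 of 12 tested) were 583 to 817 at 100 mg/kg, against 501 to 1025 at 87.5 mg/kg. Those of red blood cells (2 of 9 tested) were 815 to 3971 at 100 mg/kg, against 757 to 6063 at 87.5 mg/kg, and those of fat and muscle (4 of 12 tested) were 2496 to 3399 at 100 mg/kg, against 3187 to 4812 at 87.5 mg/kg. Skeletal muscle genes outside this list, seen afterwards, were uneven at 87.5 mg/kg. ATP2A1 had 13.09, 9.75 and 5.35 there and MYL1 had 11.73, 8.69 and 5.31, against at most 7.06 and 6.15 at 100 mg/kg. Lung adenocarcinoma markers, among them NKX2-1, NAPSA and EPCAM, were tested in 11 of 11 cases and summed to 117059 to 126680 at 100 mg/kg, against 109271 to 124583 at 87.5 mg/kg. Of these 11 markers, 10 were detected in all 6 tumours. The sums are led by the brightest markers: 4 members had differences above 0 and 7 below 0, with a median of -0.21.

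Hypoxia and glycolysis genes had 1 lower member of 40 tested, PFKFB3, which makes the activator of phosphofructokinase. It had 11.95, 12.30 and 12.03 at 100 mg/kg, against 12.85, 13.04 and 12.92 at 87.5 mg/kg, and fell by 0.84 (limma adjusted p = 0.0422). The list's median was -0.31, or -0.2 without replicate 2 at 87.5 mg/kg, and 33 of 40 members were below 0. SLC2A1, the main glucose carrier of tumour cells, had 10.46, 11.09 and 11.12 at 100 mg/kg, against 11.96, 12.51 and 11.63 at 87.5 mg/kg (limma adjusted p = 0.132). PKM, the last enzyme of glycolysis, had a difference of -0.55 (limma adjusted p = 0.144).

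Replication licensing and S phase genes had 0 of 35 members past the threshold in either direction, and a median of 0.23. In 14 of 35 (40.0%) the 100 mg/kg tumours all lay above the 87.5 mg/kg tumours, against 10.3% of all genes. PCNA, the sliding clamp of DNA polymerase, had 12.41, 12.45 and 12.47 at 100 mg/kg, against 11.90, 11.82 and 12.10 at 87.5 mg/kg (limma adjusted p = 0.0933). MCM2, a helicase subunit, had 10.03, 10.23 and 10.04 at 100 mg/kg, against 9.72, 9.57 and 9.68 at 87.5 mg/kg (limma adjusted p = 0.138). E2F8, a cell cycle repressor, had a difference of 0.84 (limma adjusted p = 0.0867). The 42 mitotic genes tested had a median of 0.04, near that of all genes and of either sign across settings, and 0 past the threshold.

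Respiratory chain subunits had 0 of 63 past the threshold, a median of 0.10 and 54 members above 0. In 13 of 63 (20.6%) the 100 mg/kg tumours all lay above the 87.5 mg/kg tumours, against 10.3% of all genes. NDUFB6, a subunit of complex I, had a difference of 0.49 (limma adjusted p = 0.123). Differences of this size were also close to the shift of all genes under median scaling, where this list had a median of 0.22 and all genes had 0.12.

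Ciliated cell genes had the highest median of any list, 0.69 (0.44 without replicate 2 at 87.5 mg/kg), with 13 of 15 members above 0 and 0 past the threshold. CDC20B, the gene whose intron holds the miR-449 cluster, had 7.62, 8.46 and 5.80 at 100 mg/kg, with detection in 2 of 3 tumours, against 5.24, 5.42 and 5.35 without detection at 87.5 mg/kg (limma adjusted p = 0.181). ROPN1L, a protein of the axoneme, had 9.29, 10.88 and 8.20 at 100 mg/kg, against 8.19, 7.52 and 7.09 at 87.5 mg/kg (limma adjusted p = 0.202). TEKT1, a filament protein of cilia, had 7.28, 8.50 and 6.43 at 100 mg/kg, against 6.63, 6.14 and 5.91 at 87.5 mg/kg (limma adjusted p = 0.246). In these 3 genes replicate 2 at 100 mg/kg was highest and replicate 3 lowest within their dose. The probes of MIR449A, MIR449B and MIR449C were detected on 0 of 12 arrays, as were those of MIR34A and MIR34B.

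Interferon-induced genes had 1 higher and 0 lower of 40 tested, with a median of -0.17 and 27 members below 0. In 9 of 40 (22.5%) the 100 mg/kg tumours all lay below the 87.5 mg/kg tumours, against 7.63% of all genes. In 2 of 40 (5.0%) they all lay above, against 10.3% of all genes. HERC5, the ligase that attaches ISG15, had 8.33, 8.30 and 8.55 at 100 mg/kg, against 7.41, 7.85 and 7.38 at 87.5 mg/kg, and rose by 0.84 (limma adjusted p = 0.0452). IFITM1, which blocks virus entry, had 8.67, 8.97 and 7.83 at 100 mg/kg, against 10.03, 11.02 and 9.99 at 87.5 mg/kg (limma adjusted p = 0.0811). HLA-E, a non-classical class I molecule, was the antigen presentation gene past the threshold among 15 tested. It had 9.52, 9.84 and 9.74 at 100 mg/kg, against 10.46, 10.48 and 10.48 at 87.5 mg/kg, and fell by 0.78 (limma adjusted p = 0.0468).

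**Figure D3:**
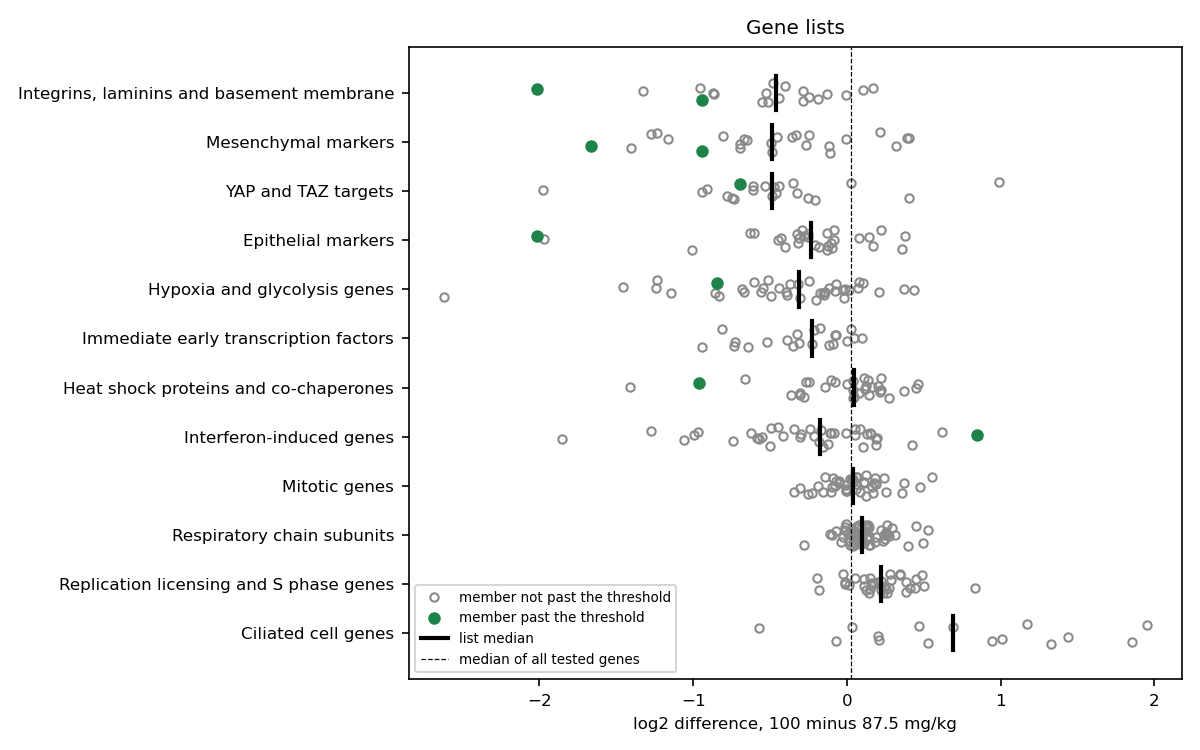
Each circle is a tested member of 1 of 12 gene lists, placed by its log2 difference (100 minus 87.5 mg/kg, x axis), filled where it passed the threshold; the thick bar is the list's median and the dashed line the median of all genes, 0.024. Medians run from -0.49 for YAP and TAZ targets to 0.69 for ciliated cell genes, where no member is filled.

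In the list of BCL2 family and apoptosis regulators, BOK, a pro-death member, rose by 0.71 (limma adjusted p = 0.0484), and 0 of the 23 tested were lower. Without replicate 2 at 87.5 mg/kg, 0 of the list were higher and 1 was lower, against 93 higher and 183 lower of all 12300 genes. BCL2 itself, which keeps cells alive, had 10.21, 10.70 and 10.42 at 100 mg/kg, against 9.75, 9.56 and 9.90 at 87.5 mg/kg (limma adjusted p = 0.184). Of 27 histone deacetylases and acetyltransferases, KAT7, an acetyltransferase of replication origins, rose by 0.70 (limma adjusted p = 0.0482) and 0 were lower, against 1 higher (not KAT7) and 1 lower without replicate 2 at 87.5 mg/kg. Receptor kinases, ligands and adaptors had 1 lower member (IRS1) and 0 higher of 23 tested, and 1 of each without that tumour. RET, a receptor kinase that can itself drive lung adenocarcinoma, had 9.43, 9.90 and 9.91 at 100 mg/kg, against 8.52, 7.47 and 8.02 at 87.5 mg/kg, with groups apart and an adjusted p of 0.0511 in limma. KIT, the stem cell factor receptor, had a difference of 0.81 (limma adjusted p = 0.189).

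The genes closest to the study's title had no difference past the threshold between these doses. ALK had 12.46, 12.47 and 12.85 at 100 mg/kg, against 12.55, 13.14 and 11.24 at 87.5 mg/kg, with overlapping groups (limma adjusted p = 0.769). EML4, its fusion partner, had a difference of -0.02 (SE 0.12). CDH1, the main epithelial cadherin, had a difference of -0.13 (SE 0.13), and VIM, vimentin of mesenchymal cells, had 10.51, 9.32 and 9.76 at 100 mg/kg, against 10.04, 10.19 and 10.10 at 87.5 mg/kg. CDH2 had a difference of 0.32 (SE 0.32) and MET, a bypass receptor kinase, one of -0.04 (SE 0.14).

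HDAC1, a histone deacetylase, had a difference of 0.01 (SE 0.13), and HDAC2, its close relative, one of 0.12 (SE 0.13). AXL, a receptor kinase linked to drug resistance, was not detected in any of the 6 tumours. The probes of ZEB1 and SNAI1, repressors of CDH1, were detected on 0 of 12 arrays. Reported miR-34 and miR-449 targets had 0 of 29 past the threshold and a median of -0.08, which was above 0 under 4 of the alternatives.

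The 75 mg/kg and control tumours took no part in the contrast, and their levels were read for the 96 genes. They shared the normalization and the estimate of spread with it, and genes picked for a small p tend to have a low spread. The shares of the 96 that pass a second contrast are therefore raised against all genes, and by how much was not tested. Of the 43 genes higher at 100 than at 87.5 mg/kg, 28 (65.1%) were also higher at 75 mg/kg than in controls by the same threshold, against 7.37% of all genes, and 1 was lower. Of the 53 lower genes, 39 (73.6%) were also lower at 75 mg/kg than in controls, against 7.13% of all genes, and 1 was higher. Without replicate 2 at 87.5 mg/kg these shares were 47.3% of 93 and 33.9% of 183.

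The 75 mg/kg mean lay between the 87.5 and 100 mg/kg means in 84 of the 96 genes, and in 38.6% of all genes. The 96 were picked for a wide gap between those same means, so a larger share is built in. The shares therefore cannot be compared. In the 84 genes the means did not follow the order of the doses. PLAT had a mean of 12.25 in controls, 9.75 at 75 mg/kg, 11.09 at 87.5 mg/kg and 8.56 at 100 mg/kg. MYH11 had 4.59 in controls, 6.54 at 75 mg/kg, 5.0 at 87.5 mg/kg and 7.53 at 100 mg/kg. In both genes the 87.5 mg/kg tumours were the treated ones nearest to the controls.

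In the other 12 genes the 75 mg/kg mean did not lie between the 87.5 and 100 mg/kg means. CCNY had a mean of 11.41 in controls, 11.57 at 75 mg/kg, 11.41 at 87.5 mg/kg and 10.17 at 100 mg/kg. HSPA1B had 13.62 in controls, 13.34 at 75 mg/kg, 13.32 at 87.5 mg/kg and 12.35 at 100 mg/kg. PEBP1 had 7.11 in controls, 8.85 at 75 mg/kg, 8.86 at 87.5 mg/kg and 10.09 at 100 mg/kg. Thus CCNY and HSPA1B were low at the highest dose and PEBP1 was high there, with similar levels at both lower doses.

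**Figure D4:**
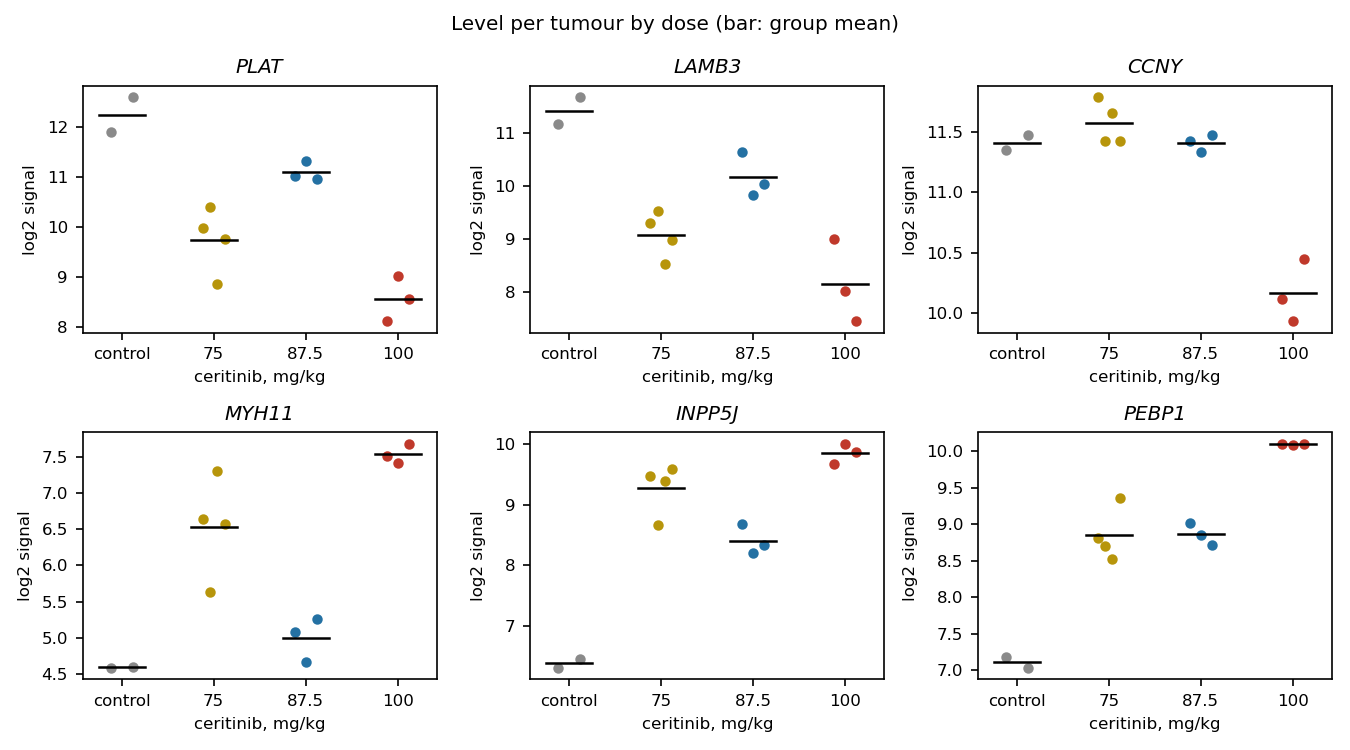
Normalized log2 signal (y axis) of 6 genes in every tumour by ceritinib dose, with 1 point per tumour and a bar for the group mean. The 75 mg/kg means of PLAT, LAMB3, MYH11 and INPP5J lie between those at 87.5 and 100 mg/kg, while CCNY is lower at 100 mg/kg (mean 10.17) than in the other groups and PEBP1 has means of 8.85, 8.86 and 10.09 at the 3 doses.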

How the data were processed

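RNA from 12 H3122 tumours was read on Illumina BeadChips, with 1 array per tumour. The authors deposited a linear signal intensity for each probe on each array, without normalization, in a value table and a text table, and per the file headers the text table adds a detection p-value. The scanner software and slides are not given in the sources used here. Both tables held identical signals in all 47323 rows, but their probe identifiers matched in 1, so identifiers came from the value table and detection p-values were joined through the signals. Gene symbols came from the platform annotation, in which 30113 probes had 1 symbol, 8 several and 17202 none; 30074 matched RefSeq by Entrez identifier.

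The function neqc of limma 3.58.1 (offset 16) corrected the background, quantile normalized the deposited signals and gave log2 values, run in R 4.3.3 with the package data.table, version 1.17.8. Probes had to be detected (p under 0.01) on 2 or more arrays, which 20889 were; 4598 of these had no symbol and were left out, and a gene was represented by its brightest probe on average. All 4 groups were fitted together in limma, with Benjamini-Hochberg adjustment of the p-values over 12300 genes. Tests on simulated data with 200 changed genes recovered 81% of changes of log2 1 and 100% of log2 2, and 4.74% of calls were false. The simulated noise was independent between genes and tumours, with equal spread in all groups and no outlying array. These rates therefore check the code and need not hold for the real tumours. Python 3.11.15 with pandas 2.3.3 and matplotlib 3.10.9 made tables and figures.

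Named genes were the 15 highest and 15 lowest differences past the threshold, up to 4 members of each list with the smallest p, and the study's genes; others are said to be chosen after their values were seen, as were CCNY, AGFG1, CDH3, MIR21, VMP1, HSPA1A, ACTA2, TAGLN and the small GTPase genes. The comparison, the 44 gene lists and the motifs were chosen with earlier results of these data known. Alternatives covered background, offset, scaling, filter, probe choice, spread model, array weights, the tumours fitted, a replicate block and leaving out each tumour. The number of arrays limits the precision. Same-numbered tumours of the 2 doses did not deviate together (r of -0.128, -0.219 and -0.221), so the numbers were not taken to pair them.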

Additional observations from a re-analysis of the deposited data

How the results depend on the processing

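The 96 genes became 30 without a detection filter, 1 when the 6 tumours alone were fitted (unadjusted p under 0.05 in 1510), 0 with the 10 ceritinib tumours (1895, lowest adjusted p 0.0577), 428 with array weights, 9 with a replicate block, although the replicate numbers are not taken to pair tumours, and 0 by treat against a fold of 1.2 (694, lowest adjusted p 0.0805), all in limma. Leaving out 1 tumour at a time gave 0 to 276. The split was 57 higher and 40 lower with arrays scaled to 1 median and 69 and 44 with log2 alone, where 65 of the 96 remained. Of the 47 named genes past the threshold, none changed direction, which leaving out a tumour could not bring about where groups are apart. Over their alternatives 476 results stayed past the threshold and 462 did not. Sign changes occurred in named genes not past the threshold: ACTA2 (0.05 with array weights, -0.36 to 0.19 leaving out 1 tumour), TAGLN (-0.69 to 0.23 leaving out 1 tumour), ALK (-0.25 to 0.7 leaving out 1 tumour, lowest without replicate 3 at 87.5 mg/kg), EML4 (0.1 with median scaling, 0.12 with log2 alone, -0.1 to 0.07 leaving out 1 tumour, with 0.05 without replicate 2 at 87.5 mg/kg), CDH1 (0.01 with log2 alone), VIM (-0.57 to 0.03 leaving out 1 tumour), CDH2 (-0.07 to 0.69 leaving out 1 tumour), MET (0.09, 0.1 and 0.12 with median scaling, log2 alone and array weights, and -0.16 to 0.04 leaving out 1 tumour) and HDAC1 (-0.03 with array weights, -0.04 to 0.07 leaving out 1 tumour). The cause was not tested, except that fits with fewer tumours have fewer degrees of freedom.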

Other observations

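The widest differences of all 12300 genes belonged to genes that did not pass the threshold, and they are named here after their values were seen. SMOC2, a secreted calcium-binding matrix protein, had 9.23, 9.56 and 13.75 at 100 mg/kg, against 8.27, 5.40 and 5.49 at 87.5 mg/kg, a difference of 4.46 (limma adjusted p = 0.0811). Its groups did not overlap, but replicate 3 at 100 mg/kg lay far above every other tumour. ATP2A1, the calcium pump of fast skeletal muscle, had 7.06, 4.93 and 6.01 at 100 mg/kg, against 13.09, 9.75 and 5.35 at 87.5 mg/kg (limma adjusted p = 0.283). MYL1, a myosin light chain of fast skeletal muscle, had 6.15, 5.87 and 5.50 at 100 mg/kg, against 11.73, 8.69 and 5.31 at 87.5 mg/kg (limma adjusted p = 0.275). In both muscle genes replicates 1 and 2 at 87.5 mg/kg were high and replicate 3 was as low as the 100 mg/kg tumours. ANGPTL4, a lipase inhibitor induced by low oxygen and by fasting, had 5.42, 9.55 and 8.94 at 100 mg/kg, against 10.91, 12.14 and 8.73 at 87.5 mg/kg, with overlapping groups (limma adjusted p = 0.300).

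Metallothioneins and metal carriers had a median difference of -0.35 over 15 tested genes, with 11 below 0 and 0 past the threshold; without replicate 2 at 87.5 mg/kg the median was -0.18 and 1 was lower. NF-kappaB targets and chemokines had a median of -0.23 over 27 tested genes, 23 of them below 0, and immediate early transcription factors one of -0.23 over 21 tested genes, with 0 past the threshold in both lists. Without replicate 2 at 87.5 mg/kg these medians were -0.05, with 1 NF-kappaB member higher, and -0.09. In that fit 93 of all 12300 genes were higher and 183 lower. FOSB, a partner in AP-1, had 8.51, 8.09 and 8.30 at 100 mg/kg, against 9.24, 9.32 and 8.51 at 87.5 mg/kg (limma adjusted p = 0.146). Cholesterol synthesis genes had a median of 0.18 over 20 tested genes, with 16 above 0.

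In the alveolar list 0 of 31 genes passed the threshold. SFTPD, a collectin of the airspace, had 11.98, 12.44 and 11.12 at 100 mg/kg, against 10.95, 10.52 and 10.67 at 87.5 mg/kg (limma adjusted p = 0.0933). SLC34A2, the phosphate carrier of alveolar cells, had 10.32, 9.18 and 9.72 at 100 mg/kg, against 10.49, 11.32 and 11.15 at 87.5 mg/kg (limma adjusted p = 0.0933). The list's median was -0.03 over 31 tested genes, above 0 under 2 of the alternatives and -0.23, with 2 members lower, without replicate 2 at 87.5 mg/kg. In that last fit 183 of all 12300 genes were lower.

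Other letter strings were searched in the 250 bases upstream of the 34 lower and 34 higher genes with a listed promoter, on both strands. The E2F letters TTTCGCGC (0.469% of all promoters), the cyclic AMP response letters TGACGTCA (1.77%), the SMAD letters GTCTAGAC (0.176%) and the palindromic glucocorticoid response element (0.00366%) occurred in none of either set. The hypoxia response letters ACGTGC (5.85%) occurred in 5 higher and 0 lower genes, and the second form GCGTGC (11.3%) in 5 higher and 4 lower. The NKX2-1 letters CACTTGA (2.15%) occurred in 4 higher and 1 lower, the extended GC box (9.73%) in 6 higher and 2 lower and the ETS letters CCGGAAG (8.82%) in 4 higher and 2 lower. The TEAD letters GGAATG (11.9%) occurred in 5 higher and 4 lower, and the TATA box TATAAA (11.1%) in 1 higher and 3 lower.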
